A study of Mus musculus with 6 samples.

Results

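The genes described here build the contractile apparatus and the actin cytoskeleton of vascular smooth muscle. They are 35 named genes, taken from a deposited table of 55487 genes by an exact match of the symbol, and all 35 were found. Measured levels played no part in that match. All 35 also passed the filter on low values (a mean of at least 1 normalized count over the 6 libraries), which left 20669 genes for testing.

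RNA was sequenced from mouse aortas trimmed to intima and media, the layers that remained once the adventitia had been stripped off under a microscope. In 3 libraries the recipient mice were labelled ChemR23e/e Apoe-/-, and in 3 they were labelled Apoe-/- alone (control). Every recipient in both groups lacked Apoe, the apolipoprotein whose loss raises plasma cholesterol, and every recipient had been irradiated and given Apoe-/- marrow at 8 to 10 weeks of age. All rested for 4 weeks, and for the next 6 weeks their food was a Western diet with 21% fat and 0.15 to 0.2% cholesterol. The e allele of ChemR23 was labelled in the recipients' genotype and not in the marrow, so it was carried by cells of the vessel wall and by whatever host blood cells survived. The labels state neither the sex of the mice nor whether a library held 1 animal or a pool. If the libraries of a group were not separate animals, the p-values measure a technical spread.

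Smooth muscle contracts when calcium and calmodulin switch on myosin light chain kinase, which phosphorylates the regulatory light chain so that smooth muscle myosin pulls on filaments of alpha-actin. Calponin, caldesmon and tropomyosin sit on those filaments. Dense bodies and adhesion plaques, built from alpha-actinin, filamin, vinculin and integrins, carry the force to the membrane and the matrix, and desmin and synemin filaments tie the dense bodies together. In atherosclerotic arteries smooth muscle cells are known to lose much of this programme as they take on other states. Many of these genes are driven by serum response factor and its cofactor myocardin, which act through a short DNA element called the CArG box.

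The group labels were not checked by the targeted gene. Cmklr1, which encodes ChemR23, measured 2388, 1788 and 1551 normalized counts in the libraries labelled ChemR23e/e, against 1396, 1028 and 1720 in those labelled control. Its log2 difference, labelled ChemR23e/e minus labelled control, was 0.47 (SE 0.21, limma adjusted p = 0.427), so it was not lower in the libraries labelled ChemR23e/e. The part of the gene altered in the e allele was not given in the sources used here. The authors' deposited table also carries group means. Its mean headed "treated" equals, for every gene, the mean of the libraries labelled control, and its mean headed "control" equals that of the libraries labelled ChemR23e/e. All directions given here are therefore between libraries as labelled, and the sign of the authors' fold changes is opposite.

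Libraries held 30887855 to 38600604 reads assigned to genes. Sex-linked RNA split the libraries labelled ChemR23e/e. Summed Y-linked counts were 19.9 and 0 in replicates 1 and 2 and 10684 in replicate 3, against 9968 to 10921 in the libraries labelled control. Xist was at 16083, 13145 and 373 in the libraries labelled ChemR23e/e, against 8.87 to 22.0 in those labelled control. Replicates 1 and 2 of the libraries labelled ChemR23e/e thus differed from the other 4 in Y-linked RNA, and the differences without them follow the overall counts. Replicate 3 of that group had Y-linked RNA at the level of the libraries labelled control, but its Xist count of 373 was above all of theirs. Summed counts of 14 macrophage markers were 38334, 54021 and 12023 in the libraries labelled ChemR23e/e and 7424, 13770 and 10027 in those labelled control. Of these 14, 12 lay above 0 and 2 below, between -0.44 for Mrc1 and 2.11 for Cd68, with a median log2 difference of 1.16. Lyz2 made up the largest part of the sum. Summed counts of 8 adipocyte markers were 575, 18345 and 393 in the libraries labelled ChemR23e/e and 5210, 45292 and 8848 in those labelled control. Those of 6 erythroid markers were 704, 1542 and 4817 in the libraries labelled ChemR23e/e, against 54183, 42782 and 130251 in those labelled control, and those of 10 adventitial fibroblast markers were 128070, 147816 and 125503 in the libraries labelled ChemR23e/e, against 96045, 117758 and 119439 in those labelled control. The fibroblast markers did not go 1 way: 5 of the 10 lay above 0 and 5 below, with a median log2 difference of -0.13, and the higher sum came from the collagen genes Col1a1 (0.65) and Col3a1 (0.61), while Dcn was at -0.93.

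The CArG box was searched as CC, 6 letters of A or T, and GG, without mismatch. The window ran from 250 bases before to 50 bases after an annotated start. Among the 29 members with an entry in the RefSeq promoter table (GRCm38.p6), 6 held a match. That is 20.7% of the members, against 1.81% of the 27025 genes of the deposited table that have an entry (488 genes). The motif was searched on both strands, which read alike for its form, and a match is a description of letters. Looser boxes were not counted. The Acta2 window, for example, had no match but held ccctatatgg, where a C stands in place of an A or T. Actg2, Aoc3, Tagln, Rbpms, Myh11 and Nexn had no entry. The 6 stretches are shown because they carry the sequence feature that this gene group is known for. The members were picked as genes of this group, so their share is not independent of that knowledge. Each runs 5′ to 3′ along the strand of its gene, with the CArG box in capitals.
Cnn2 (chr10:79988519-79988578, + strand): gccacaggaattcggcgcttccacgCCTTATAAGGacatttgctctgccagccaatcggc
Filip1l (chr16:57549155-57549214, + strand): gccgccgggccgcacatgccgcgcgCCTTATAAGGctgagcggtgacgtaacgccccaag
Ldb3 (chr14:34588682-34588741, - strand): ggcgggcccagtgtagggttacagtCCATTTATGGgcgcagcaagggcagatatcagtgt
Myl6 (chr10:128493025-128493084, - strand): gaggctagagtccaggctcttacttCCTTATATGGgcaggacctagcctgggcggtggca
Myl9 (chr2:156775278-156775337, + strand): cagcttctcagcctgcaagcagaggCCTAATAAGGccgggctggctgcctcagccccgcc
Vcl (chr14:20929148-20929205, + strand): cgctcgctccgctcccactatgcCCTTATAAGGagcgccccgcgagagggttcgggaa
Cnn2, Filip1l and Vcl share the same box letter for letter. The box ended 26 bases before a start of Ldb3, 41 before a start of Myl6, 47 before that of Cnn2, 53 before a start of Filip1l, 152 before that of Myl9 and 218 before that of Vcl. The 6 genes lay on both sides of 0 in the comparison of the groups: their log2 differences were 0.05 for Cnn2, -0.25 for Filip1l, -0.20 for Ldb3, 0.10 for Myl6, 0.11 for Myl9 and 0.20 for Vcl. None of the 6 was called by limma.

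The main comparison asked which of these genes differed between aortas labelled ChemR23e/e and labelled control. None of the 35 passed limma at an adjusted p under 0.05, a threshold that 28 of all 20669 genes passed (0.135%). At an unadjusted p under 0.05 limma took 3 of the 35, namely Aoc3, which was higher in the libraries labelled ChemR23e/e, and Pgm5 and Synm, which were lower. Of all genes tested, 12.2% passed that looser mark, so the members' share lay near the background. DESeq2 run on whole reads recovered from the deposited values called 1 member, Pgm5, and 4.4% of all 16201 genes with an adjusted p. The edgeR quasi-likelihood test on the same reads called 0 members and 1 of 15196 genes (0.00658%). In the authors' deposited table, Pgm5 was the 1 member with an adjusted p under 0.05, where 4.38% of 15771 genes had one.

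The median log2 difference of the 35 genes was 0.07, against -0.01 over all genes tested, and 22 of the 35 lay above 0, against 48.8% of all genes. The members ran between -0.38 for Synm and 0.30 for Aoc3. In bulk tissue, fewer smooth muscle cells and less RNA per cell cannot be told apart, and this holds for every level given here. The 35 genes together took 9.86%, 8.31% and 10.8% of the reads in the libraries labelled ChemR23e/e, against 9.54%, 9.21% and 8.98% in those labelled control. The 95% Wilson interval of each share was within 0.0104 percentage points, which covers counting error alone. The share was thus both highest and lowest in the group labelled ChemR23e/e, and the groups overlapped.

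These differences depended on which libraries labelled ChemR23e/e were kept. The members' median was -0.02 without replicate 3 and 0.15 without replicate 2. With replicate 3, the 1 library of its group with Y-linked RNA, set alone against the libraries labelled control, the median was 0.21 and 33 of the 35 genes lay above 0, all but Pgm5 (-0.17) and Synm (-0.16). In that comparison 11 genes that were below 0 with all libraries lay above it, namely Cald1 (0.10), Myh11 (0.29), Ppp1r12a (0.09), Ppp1r12b (0.15), Flna (0.23), Tns1 (0.11), Pdlim3 (0.06), Ldb3 (0.05), Nexn (0.10), Filip1l (0.01) and Rbpms (0.18). Genes already above 0 were mostly higher there, such as Actg2 (0.67), Aoc3 (0.47), Mcam (0.44), Acta2 (0.42), Vcl (0.38) and Cnn1 (0.38). A single library cannot separate the sex-linked pattern from its other differences.

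**Figure D1:**
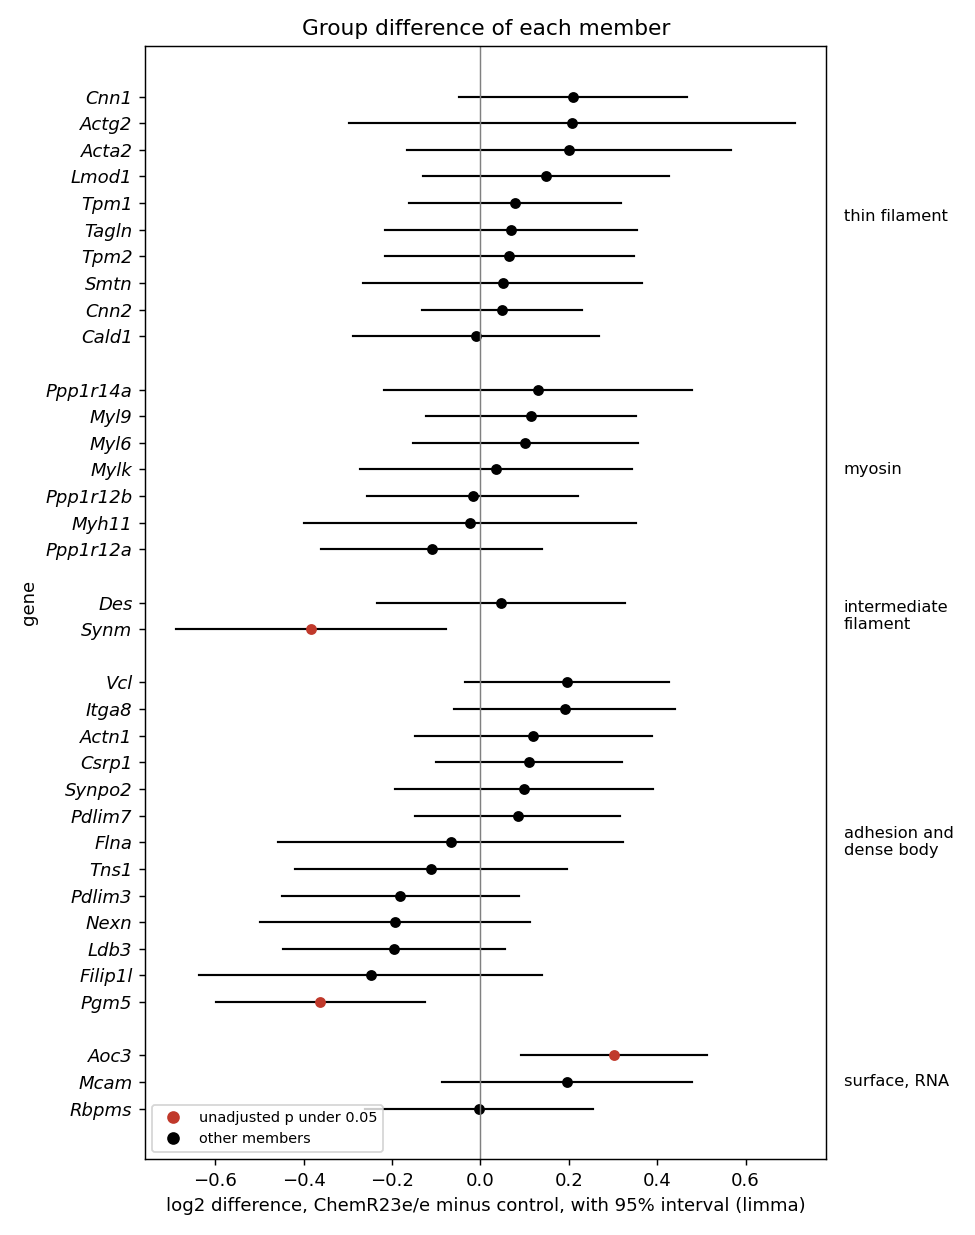
Log2 difference of each of the 35 genes, labelled ChemR23e/e minus labelled control (horizontal axis), with its 95% limma interval, grouped by role. The intervals of Aoc3, Pgm5 and Synm lie clear of 0, and those of the other 32 genes include it.

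Of the 10 thin filament genes 9 lay above 0 and none was called. Acta2, the smooth muscle alpha-actin of the contractile filament (chr19:34241090-34255590, - strand, GRCm38), alone took 2.17%, 1.80% and 2.43% of the reads in the libraries labelled ChemR23e/e and 1.88%, 1.94% and 1.77% in those labelled control. Its normalized counts were 721609, 613377 and 835257 in the libraries labelled ChemR23e/e, against 624787, 664785 and 587012 in those labelled control. The group labelled ChemR23e/e averaged 723414 ± 110951 and the group labelled control 625528 ± 38892 (SD, n = 3 each). The groups overlapped, since replicate 2 labelled ChemR23e/e lay below 2 of the 3 libraries labelled control. The log2 difference was 0.20 (SE 0.16, 95% interval -0.17 to 0.57, limma adjusted p = 0.676). It was 0.09 without replicate 3 labelled ChemR23e/e and 0.31 without replicate 2 of that group.

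Actg2, the gamma-actin typical of visceral smooth muscle (chr6:83512905-83536265, - strand), measured 9093, 9182 and 14710 normalized counts in the libraries labelled ChemR23e/e and 8763, 11864 and 7660 in those labelled control. Replicate 3 labelled ChemR23e/e was the highest of the 6. The log2 difference of 0.21 had an SE of 0.22 and ranged between -0.02 and 0.39 when each library was left out in turn, so its sign turned without replicate 3 labelled ChemR23e/e. Actins share long stretches of sequence, and how the authors' counting treated reads that map to several genes was not given in the sources used here, so the split between Acta2 and Actg2 is uncertain.

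Tagln, the actin-bundling protein transgelin or SM22-alpha (chr9:45929619-45936058, - strand), had normalized counts of 362632, 311620 and 378012 in the libraries labelled ChemR23e/e, against 333253, 319080 and 347455 in those labelled control, a log2 difference of 0.07 (SE 0.12, limma adjusted p = 0.874). Of its 1988 exonic bases, 1241 are also exonic in a gene on the other strand, and the strand setting of the counting was not given in the sources used here. In all, 12 members overlap exons of another gene and 10 of them do so on the other strand, among them Vcl with 2090 of 8191 bases shared with Ap3m1.

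Cnn1, the calponin of differentiated smooth muscle (chr9:22099216-22109630, + strand), measured 69195, 60109 and 76631 normalized counts in the libraries labelled ChemR23e/e and 56549, 64371 and 56606 in those labelled control. Replicates 1 and 3 labelled ChemR23e/e were above all 3 libraries labelled control and replicate 2 was not. The log2 difference was 0.21 (SE 0.11, 95% interval -0.05 to 0.47, limma adjusted p = 0.507) and stayed above 0 with each library left out, between 0.13 and 0.30. Cnn2, the more widely expressed calponin, had normalized counts of 10019, 8612 and 9039 in the libraries labelled ChemR23e/e and 8492, 8890 and 9335 in those labelled control, a log2 difference of 0.05 (SE 0.08, limma adjusted p = 0.858).

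The tropomyosins, which lie along the actin filament, lay close together in the libraries labelled control. Tpm2 had normalized counts of 78149, 64822 and 89521 in the libraries labelled ChemR23e/e, against 74904, 73153 and 72242 in those labelled control. Tpm1 was at 74921, 67172 and 85045 in the libraries labelled ChemR23e/e, against 74120, 69883 and 70336 in those labelled control. For both, the libraries labelled ChemR23e/e spanned all 3 libraries labelled control, and the log2 differences were 0.08 for Tpm1 (SE 0.10) and 0.07 for Tpm2 (SE 0.12).

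Lmod1, a leiomodin that starts new actin filaments, measured 42328, 34969 and 40944 normalized counts in the libraries labelled ChemR23e/e and 39935, 36461 and 30562 in those labelled control, a log2 difference of 0.15 (SE 0.12, limma adjusted p = 0.685). Smtn, the actin-binding smoothelin of contractile cells, was at 42256, 32689 and 46702 in the libraries labelled ChemR23e/e and 42024, 35700 and 38718 in those labelled control. Its log2 difference was 0.05 (SE 0.14). Cald1, the caldesmon that inhibits actomyosin, was the 1 gene in this role below 0, at -0.01 (SE 0.12, limma adjusted p = 0.986). The median of the 10 was 0.07, and under quantile normalization Tpm2 (-0.01) and Smtn (-0.02) lay below 0 too.

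**Figure D2:**
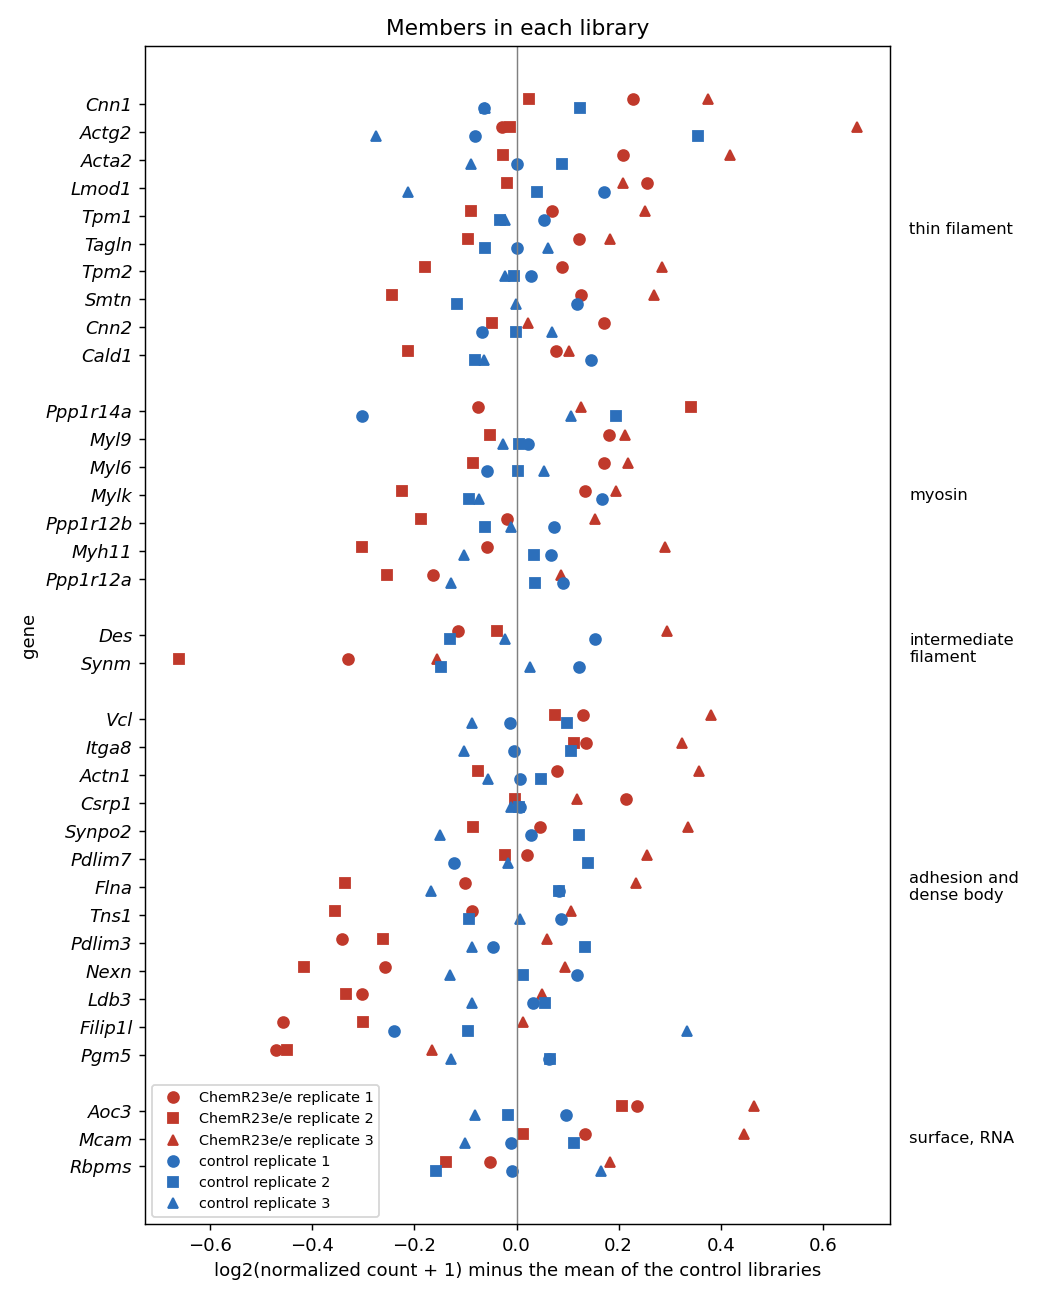
Log2 level of each of the 35 genes in each of the 6 libraries relative to the mean of the libraries labelled control, with genes in rows by role. Replicate 3 labelled ChemR23e/e has 33 of 35 genes above that mean and replicate 2 labelled ChemR23e/e has 6.

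Myosin and its regulators gave a median log2 difference of 0.04, with 4 of 7 genes above 0. Myh11, the heavy chain of smooth muscle myosin and a marker of mature contractile cells (chr16:14194535-14291372, - strand), measured 263563, 222327 and 335736 normalized counts in the libraries labelled ChemR23e/e, against 287645, 281112 and 255433 in those labelled control. The highest and the lowest of the 6 libraries were both labelled ChemR23e/e. The group labelled ChemR23e/e averaged 273875 ± 57404 and the group labelled control 274730 ± 17028 (SD, n = 3 each), and the log2 difference was -0.02 (SE 0.16, 95% interval -0.40 to 0.35, limma adjusted p = 0.972). Against the libraries labelled control, replicate 3 labelled ChemR23e/e alone gave 0.29.

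Myl9, the regulatory light chain that myosin light chain kinase phosphorylates, had normalized counts of 144045, 122567 and 147110 in the libraries labelled ChemR23e/e and 128965, 127330 and 124691 in those labelled control. Myl6, the essential light chain, was at 150965, 126483 and 156034 in the libraries labelled ChemR23e/e and 128907, 134373 and 139213 in those labelled control. In both genes replicates 1 and 3 labelled ChemR23e/e were above all libraries labelled control and replicate 2 was below them. The log2 differences were 0.11 for Myl9 (SE 0.10, limma adjusted p = 0.715) and 0.10 for Myl6 (SE 0.11, limma adjusted p = 0.766). Myl9 turned to -0.005 under quantile normalization.

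Mylk, the kinase that switches contraction on, had normalized counts of 78562, 61303 and 81879 in the libraries labelled ChemR23e/e, against 80332, 67098 and 68023 in those labelled control (log2 difference 0.04, SE 0.13, and -0.02 under quantile normalization). Ppp1r12a, the targeting subunit of the phosphatase that switches it off, was at 31651, 29731 and 37674 in the libraries labelled ChemR23e/e, against 37802, 36370 and 32447 in those labelled control (log2 difference -0.11, SE 0.11, limma adjusted p = 0.737, and 0.09 for replicate 3 labelled ChemR23e/e alone). Ppp1r12b, its relative, differed by -0.02 (SE 0.10). Ppp1r14a, the CPI-17 protein that inhibits this phosphatase, was at 3649, 4877 and 4198 in the libraries labelled ChemR23e/e and 3116, 4406 and 4145 in those labelled control, a log2 difference of 0.13 (SE 0.15). It was the myosin regulator whose highest library was replicate 2 labelled ChemR23e/e.

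The intermediate filament genes had the lowest levels per length. Des, the muscle intermediate filament desmin (chr1:75360329-75368579, + strand), averaged 867 normalized counts per kb of exon in the libraries labelled ChemR23e/e and 835 in those labelled control, and Synm, its partner synemin (chr7:67730160-67759742, - strand), averaged 439 in the libraries labelled ChemR23e/e and 568 in those labelled control on that scale. Des counts were 2885, 3042 and 3833 in the libraries labelled ChemR23e/e and 3477, 2855 and 3075 in those labelled control (log2 difference 0.05, SE 0.12, limma adjusted p = 0.919).

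Synm had normalized counts of 3572, 2840 and 4032 in the libraries labelled ChemR23e/e, against 4887, 4055 and 4574 in those labelled control. The group labelled ChemR23e/e averaged 3481 ± 601 and the group labelled control 4505 ± 420 (SD, n = 3 each). All 3 libraries labelled ChemR23e/e were below all 3 labelled control, and the nearest libraries were 4032 (labelled ChemR23e/e) and 4055 (labelled control). The log2 difference was -0.38 (SE 0.13, 95% interval -0.69 to -0.08), the lowest of the 35, and it did not pass limma (adjusted p = 0.306), DESeq2 (adjusted p = 0.137) or edgeR (adjusted p = 0.287). With each library left out in turn it ran between -0.50 and -0.24. Replicate 3 labelled ChemR23e/e against the libraries labelled control gave -0.16.

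Adhesion and dense body genes lay on both sides of 0, with 6 of 13 above it and a median of -0.07. Pgm5, or aciculin, a phosphoglucomutase relative without that enzyme's activity that sits in dense plaques with dystrophin (chr19:24683016-24861855, - strand), had the lowest p of the 35. Its normalized counts were 14042, 14247 and 17341 in the libraries labelled ChemR23e/e, against 20331, 20363 and 17791 in those labelled control. The group labelled ChemR23e/e averaged 15210 ± 1849 and the group labelled control 19495 ± 1476 (SD, n = 3 each). The groups did not overlap, with replicate 3 labelled ChemR23e/e next to replicate 3 labelled control.

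The Pgm5 level in the libraries labelled ChemR23e/e was 0.778 times that in the libraries labelled control (log2 difference -0.36, SE 0.10, 95% interval -0.60 to -0.12, unadjusted p = 0.00795, limma adjusted p = 0.220). DESeq2 on the recovered reads called it (log2 -0.36, adjusted p = 0.0440) and edgeR did not (adjusted p = 0.200). The authors' deposited table gives it a log2 fold change of 0.33, whose sign runs the other way, and an adjusted p of 0.0444. Without replicate 3 labelled ChemR23e/e, limma called it (-0.46, adjusted p = 0.0496), but then the group and the sex-linked pattern coincide and cannot be told apart. Replicate 3 labelled ChemR23e/e against the libraries labelled control gave -0.17.

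Itga8, the integrin alpha-8 chain of vascular smooth muscle (chr2:12106632-12301922, - strand), had normalized counts of 162967, 160292 and 185593 in the libraries labelled ChemR23e/e, against 147701, 159717 and 138121 in those labelled control. The groups did not overlap, by a narrow gap between 160292 and 159717. The log2 difference was 0.19 (SE 0.11, 95% interval -0.06 to 0.44, limma adjusted p = 0.538). Vcl, the vinculin that links talin to actin (chr14:20929398-21033676, + strand), was at 30826, 29685 and 36647 in the libraries labelled ChemR23e/e and 27902, 30174 and 26512 in those labelled control, a log2 difference of 0.20 (SE 0.10, limma adjusted p = 0.491).

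Flna, the actin cross-linker filamin A, had normalized counts of 323267, 274407 and 407709 in the libraries labelled ChemR23e/e, against 367243, 367189 and 308474 in those labelled control (log2 difference -0.07, SE 0.17). Its gene lies on the X chromosome. Tns1, the tensin that couples integrins to actin, was at 138564, 115049 and 158504 in the libraries labelled ChemR23e/e and 156306, 137969 and 147985 in those labelled control (log2 difference -0.11, SE 0.13). Actn1, the cross-linker alpha-actinin, was at 51409, 46211 and 62359 in the libraries labelled ChemR23e/e and 48927, 50360 and 46847 in those labelled control (log2 difference 0.12, SE 0.12). In all 3 genes the highest library of the 6 was replicate 3 labelled ChemR23e/e and the lowest was replicate 2 of that group. For replicate 3 alone the log2 differences were 0.23 for Flna, 0.11 for Tns1 and 0.36 for Actn1.

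Among the proteins with PDZ or LIM domains and other actin-binding members, some lay below 0 and some above, and none was called. Ldb3, a PDZ and LIM domain protein that binds alpha-actinin, had normalized counts of 5469, 5353 and 6983 in the libraries labelled ChemR23e/e and 6901, 7009 and 6351 in those labelled control (log2 difference -0.20, SE 0.11, limma adjusted p = 0.528). Nexn, the actin-binding nexilin, was at 6420, 5749 and 8206 in the libraries labelled ChemR23e/e and 8338, 7743 and 7010 in those labelled control (-0.19, SE 0.13). Pdlim3, an alpha-actinin-associated LIM protein, was at 11297, 11940 and 14937 in the libraries labelled ChemR23e/e and 13862, 15715 and 13484 in those labelled control (-0.18, SE 0.12). In these 3 genes replicates 1 and 2 labelled ChemR23e/e were below all libraries labelled control, and replicate 3 was not. For replicate 3 alone the log2 differences were above 0, at 0.05 for Ldb3, 0.10 for Nexn and 0.06 for Pdlim3. Pdlim7, another PDZ and LIM domain protein, differed by 0.08 (SE 0.10) and Synpo2, an actin-binding protein of dense bodies, by 0.10 (SE 0.13), both on the other side of 0.

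Filip1l, named for its likeness to a filamin-binding protein, had normalized counts of 10238, 11411 and 14195 in the libraries labelled ChemR23e/e and 11915, 13164 and 17731 in those labelled control (log2 difference -0.25, SE 0.17, limma adjusted p = 0.616). Csrp1, a LIM protein of the actin cytoskeleton, was at 113132, 97302 and 105824 in the libraries labelled ChemR23e/e, against 97918, 97835 and 96727 in those labelled control (0.11, SE 0.09).

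Skeletal and cardiac muscle were looked at beside these genes. Summed counts of 7 tested skeletal markers were 142, 131 and 202 in the libraries labelled ChemR23e/e and 151, 231 and 149 in those labelled control, and the fast skeletal myosins Myh1, Myh2 and Myh4 were too low to pass the filter. Summed counts of 8 tested cardiac markers were 3826, 3478 and 4505 in the libraries labelled ChemR23e/e and 5199, 4854 and 4454 in those labelled control, mostly Ryr2, while Myl7 and Nppa were too low to pass it. The 8 did not go 1 way: 2 lay above 0 and 6 below, between -0.79 for Tnnt2 and 2.12 for Actc1. Limma called 0 of them, while DESeq2 gave an adjusted p of 0.0101 for Tnnt2 and 0.0120 for Actc1.

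Among the surface and RNA-binding members, Aoc3, the vascular amine oxidase VAP-1 that smooth muscle carries on its surface (chr11:101330605-101341938, + strand), was the highest of the 35 by log2 difference. It had normalized counts of 17557, 17201 and 20594 in the libraries labelled ChemR23e/e, against 15956, 14745 and 14094 in those labelled control. The group labelled ChemR23e/e averaged 18450 ± 1865 and the group labelled control 14932 ± 945 (SD, n = 3 each). All 3 libraries labelled ChemR23e/e were above all 3 labelled control. The ratio was 1.23 (log2 difference 0.30, SE 0.09, 95% interval 0.09 to 0.51, unadjusted p = 0.0108), and it did not pass limma (adjusted p = 0.243), DESeq2 (adjusted p = 0.0684) or edgeR (adjusted p = 0.218). With each library left out in turn the log2 difference ran between 0.22 and 0.35. Adipocytes express Aoc3 as well. Their summed markers were lowest in replicates 1 and 3 labelled ChemR23e/e, as given above, and their part in the Aoc3 level was not tested.

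Mcam, the adhesion molecule CD146 of mural and endothelial cells, had normalized counts of 47356, 43551 and 58778 in the libraries labelled ChemR23e/e and 42848, 46656 and 40266 in those labelled control (log2 difference 0.20, SE 0.12, limma adjusted p = 0.581). Summed endothelial markers were 97065, 76487 and 77490 in the libraries labelled ChemR23e/e and 104415, 74948 and 100875 in those labelled control. Rbpms, an RNA-binding protein known to direct smooth muscle splicing, averaged 13599 ± 1604 in the libraries labelled ChemR23e/e and 13622 ± 1536 in those labelled control (SD, n = 3 each). Its log2 difference was -0.003 (SE 0.11), the closest to 0 of the 35.

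**Figure D3:**
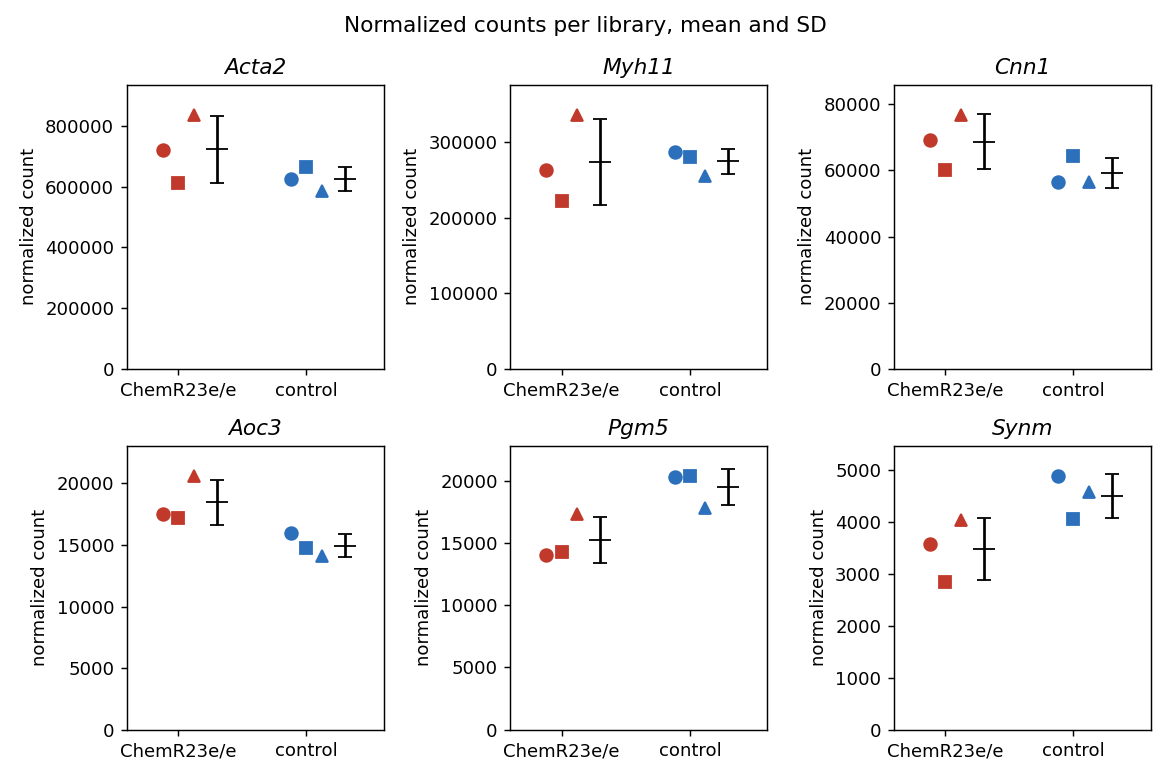
Normalized counts of 6 of the genes in each library (points, with the mean and SD of each group), libraries labelled ChemR23e/e left of those labelled control, on separate linear axes. Aoc3, Pgm5 and Synm show groups that do not overlap, while the libraries labelled ChemR23e/e span those labelled control for Myh11.

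Counting over all 35, the groups did not overlap in 2 genes that were higher in the libraries labelled ChemR23e/e (Aoc3 and Itga8) and in 2 that were lower (Pgm5 and Synm). Over all genes tested, 8.8% did not overlap in the higher direction and 8.24% in the lower, so these counts were near or below the background. The SD of log2 values was larger in the libraries labelled ChemR23e/e than in those labelled control for 32 of the 35 genes, against 48.6% of all genes. The 35 genes varied together across libraries, so they do not count as 35 separate observations of that spread, and no test was made of it.

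Replicate 3 labelled ChemR23e/e was the highest of the 6 libraries for 23 of the 35 genes (15.7% of all genes), and replicate 2 labelled ChemR23e/e was the lowest for 17 (18.7% of all genes). Relative to the mean of the libraries labelled control, the members' median log2 level was 0.07, -0.09 and 0.21 in replicates 1, 2 and 3 labelled ChemR23e/e, against 0.03, 0.01 and -0.06 in replicates 1, 2 and 3 labelled control. Over all genes these medians lay between -0.003 and 0.005. The library with the lowest members, replicate 2 labelled ChemR23e/e, had the highest summed macrophage markers (54021) and 18345 summed adipocyte counts. Replicate 3 labelled ChemR23e/e, with the highest members, had 12023 and 393. Replicate 1 labelled ChemR23e/e had a macrophage sum of 38334, above every library labelled control, with its members' median at 0.07. Replicate 2 labelled control had the highest adipocyte sum, 45292, with its members' median at 0.01. No macrophage marker was at 0 in any library, while the adipocyte hormone Lep was at 0 in replicates 1 and 3 labelled ChemR23e/e. The part of other cells in the members' levels was not tested.

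**Figure D4:**
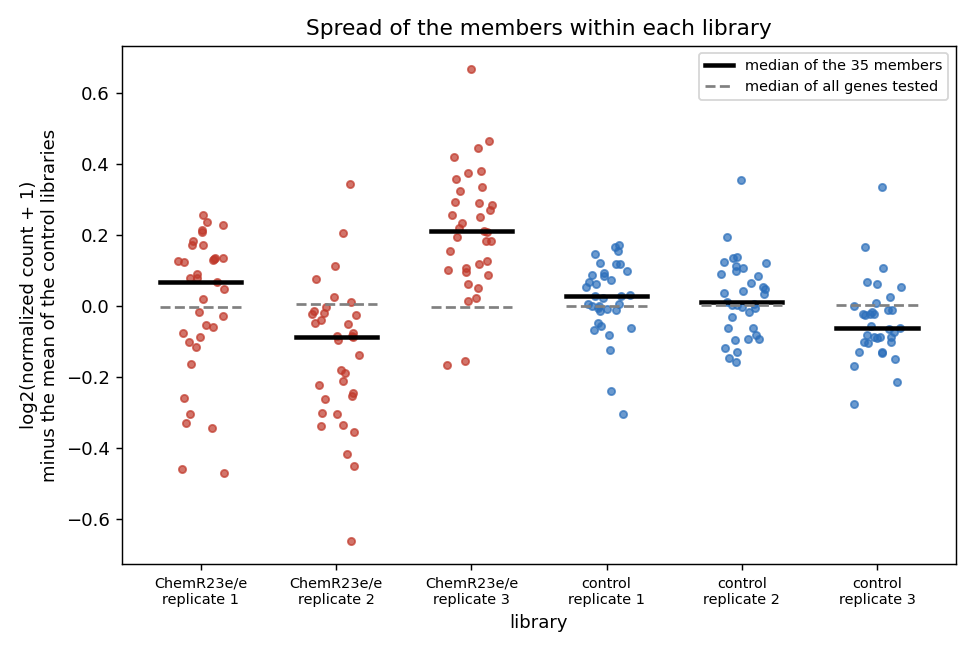
Distribution over the 35 genes of the log2 level relative to the mean of the libraries labelled control, by library, with those labelled ChemR23e/e left of those labelled control. The medians of the 3 libraries labelled ChemR23e/e, 0.07, -0.09 and 0.21, lie farther apart than those of the 3 labelled control.

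To see which genes departed from the others within a library, each library's median member level was subtracted from its log2 values, a step chosen after the values were seen. The groups then did not overlap in 2 genes that were higher in the libraries labelled ChemR23e/e, Aoc3 and Cnn1, where 3.86% of all genes were. They did not overlap in 6 genes that were lower, namely Ldb3, Nexn, Pdlim3, Pgm5, Ppp1r12a and Synm, where 11.1% of all genes were. The median was the members' own, and subtracting it moved the shares over all genes, which were 8.8% higher and 8.24% lower before. Those shares are therefore not a like background for the members' counts. Itga8 overlapped on this scale.

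The members were ordered by their levels per kb of exon. Exon length was merged over all annotated transcripts of a gene, so the order depends on the annotation. Acta2 was at 329424 normalized counts per kb in the libraries labelled ChemR23e/e and 284849 in those labelled control, Tagln at 176436 in the libraries labelled ChemR23e/e and 167637 in those labelled control, and Myl9 at 118681 in the libraries labelled ChemR23e/e and 109290 in those labelled control. In every library the order on that scale was Acta2, Tagln, Myl9. Csrp1 followed, with 53895 per kb in the libraries labelled ChemR23e/e and 49843 in those labelled control, and then Myl6, with 45339 in the libraries labelled ChemR23e/e and 42097 in those labelled control. Myh11 (36041 in the libraries labelled ChemR23e/e, 36153 in those labelled control) and Flna (35652 in the libraries labelled ChemR23e/e, 36982 in those labelled control) came next, and they differed from each other by less than the spread between libraries. Nexn, Ldb3, Des and Synm closed the order.

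Ratios between members of the same library are free of the authors' scaling. In 8 pairs of members the log2 ratio was compared by an exact two-sided permutation test, in which 3 libraries against 3 cannot give a p below 0.1. Acta2 over Myh11, the contractile actin over its motor, was 2.74, 2.76 and 2.49 in the libraries labelled ChemR23e/e, against 2.17, 2.36 and 2.30 in those labelled control. The groups did not overlap, the log2 difference was 0.22, and the exact p was 0.1, the smallest possible (0.64 adjusted over the 8 pairs). It ran between 0.19 and 0.27 with each library left out, and was 0.13 in replicate 3 labelled ChemR23e/e against the libraries labelled control.

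In the other 7 pairs the groups overlapped. Mylk over Ppp1r12a, kinase over phosphatase subunit, was 2.48, 2.06 and 2.17 in the libraries labelled ChemR23e/e and 2.13, 1.84 and 2.10 in those labelled control (log2 difference 0.15, exact p = 0.3). Cnn1 over Cnn2 was 6.91, 6.98 and 8.48 in the libraries labelled ChemR23e/e and 6.66, 7.24 and 6.06 in those labelled control (0.16, exact p = 0.4). Des over Acta2 differed by -0.15 (exact p = 0.4), Ppp1r12b over Ppp1r12a by 0.09 (exact p = 0.3), and Acta2 over Actg2, Tpm1 over Tpm2 and Myl9 over Myl6 by -0.01, 0.01 and 0.01 on the log2 scale (exact p of 1, 0.9 and 0.8).

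**Figure D5:**
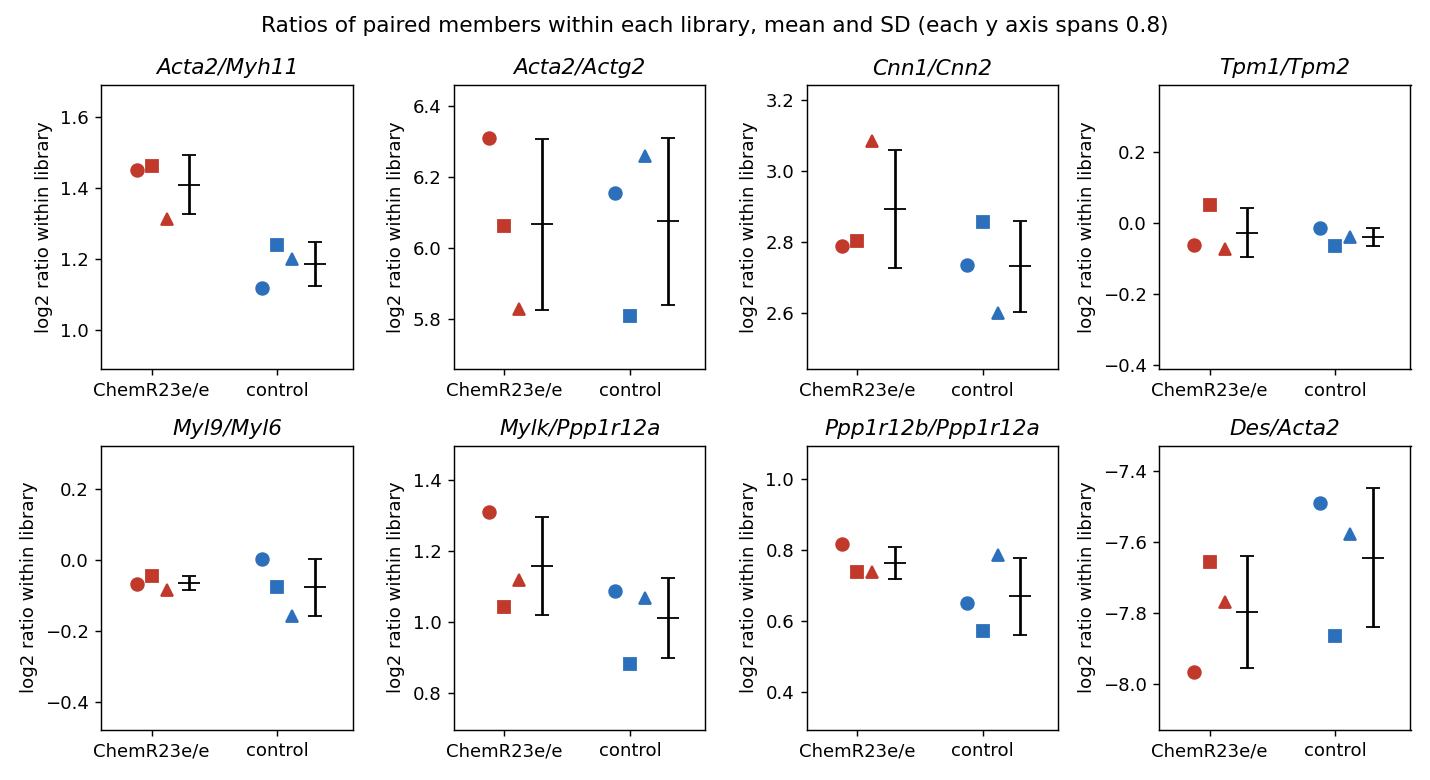
Log2 ratio of 2 members within each library for the 8 pairs, with libraries labelled ChemR23e/e left of those labelled control. Acta2 over Myh11 is the 1 pair whose groups do not overlap, with a difference of 0.22.

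Further genes of the same machinery were listed by function, of which 86 of 88 were tested (Ppp1cc and Mrvi1 were not analysed here). Of the 86, limma called 0, 8 were higher and 7 lower at an unadjusted p under 0.05, 42 lay above 0 and the median log2 difference was -0.001. Among 24 actin filament partners the median was 0.07 with 15 above 0. The 2 most abundant of them were Dstn, an actin-severing destrin (0.11, SE 0.09), and Actb, the cytoplasmic beta-actin (0.15, SE 0.09). Among 22 myosin genes and regulators the median was -0.04 with 8 above 0. Ppp1cb, the catalytic subunit of myosin phosphatase, differed by -0.02 (SE 0.08) and Myh10, a non-muscle myosin heavy chain, by 0.05 (SE 0.08).

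Among 34 focal adhesion and membrane plaque genes, 15 lay above 0, the median was -0.02, and 3 were higher and 4 lower at an unadjusted p under 0.05. Fhl1, a LIM protein of muscle, differed by 0.28 (SE 0.10, limma adjusted p = 0.340) and Itgb1, the beta-1 integrin chain that pairs with Itga8, by -0.002 (SE 0.09). Among 6 intermediate filament and lamina genes, Vim, the vimentin of mesenchymal cells, differed by -0.08 (SE 0.11), and Dst, the dystonin that links filament systems, by -0.33 (SE 0.11, limma adjusted p = 0.272).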

How the data were processed

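RNA of the aortic media and intima was sequenced in 6 libraries, made with the TruSeq Stranded mRNA kit, as the labels' protocols say. The submitters' processing notes name HISAT2 2.2.1, featureCounts 2.0.1, bcl2fastq 2.20, R 4.2.0, DESeq2 1.36.0 and the build GRCm38. The annotation and the strand setting were not given in the sources used here. The authors' deposited table holds a signal per gene and library, namely read counts divided by a size factor, which is called a normalized count here. The same table, as deposited, gives the log2 fold change of the authors' fit, with its SE, the p-value and the adjusted p-value, and the authors' mean per group. In each library 100% of the deposited values were whole multiples of its smallest step (tolerance 0.001 reads), so whole reads were recovered for the count tests.

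Because the deposited values are normalized, limma 3.58.1 (lmFit, eBayes with trend, R 4.3.3) on log2(normalized count + 1) was the main test, for genes with a mean of at least 1. It was two-sided, with Benjamini-Hochberg adjustment over all 20669 genes and a call at an adjusted p under 0.05. A log2 difference is labelled ChemR23e/e minus labelled control, and the added 1 shrinks the differences of weakly expressed genes. DESeq2 1.42.0 and edgeR 4.0.16 on the recovered reads, other pseudocounts, filters and scalings, array weights, leaving out each library and the 4 libraries with Y-linked RNA were alternatives. Replicate numbers follow the order of deposition and pair nothing. The procedure was tested on simulated data, in which the planted differences were larger than any found among the members. That test therefore does not tell whether differences of the members' size would be called. Positions and exon lengths come from the GENCODE annotation of GRCm38, with exons merged over all transcripts of a gene. Promoter sequences come from RefSeq.

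The text names every member, and from each list of further genes the 2 with the highest mean. Members and lists were chosen with earlier results of these data known.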

Additional observations from a re-analysis of the deposited data

How the results depend on the processing

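No paired analysis was possible because the labels give no replicate numbers. Precision was set by the spread over 3 libraries a group. Calls over all genes (28 by limma) varied: 713 by DESeq2, 244 with array weights, 91 without a filter, 6 without the trend, 1 by edgeR, 1 at a mean of at least 10, 0 in the libraries with Y-linked RNA, and 0 to 427 with 1 library left out. Members called (0 by limma) were 1 by DESeq2 and 0 to 1 with 1 library left out, each time Pgm5. Members at an unadjusted p under 0.05 (3) were 5 with array weights, 7 in the libraries with Y-linked RNA and 2 to 6 with 1 left out. Of all 20669 genes, limma took 2512 at that mark, 3404 with array weights and 1693 to 2895 with 1 library left out. The count of 7 sets 1 library labelled ChemR23e/e against 3, in genes that varied together, so no conclusion is drawn from it. In the libraries with Y-linked RNA (1 labelled ChemR23e/e, assumed to vary like the 3 labelled control), 11 log2 differences turned above 0: Cald1 0.10, Myh11 0.29, Ppp1r12a 0.087, Ppp1r12b 0.15, Flna 0.23, Tns1 0.11, Pdlim3 0.061, Ldb3 0.050, Nexn 0.096, Filip1l 0.014 and Rbpms 0.18. There the log2 ratios of Tpm1 over Tpm2 (-0.034) and Myl9 over Myl6 (-0.0063) turned below 0. Quantile normalization gave Tpm2 -0.011, Smtn -0.019, Myl9 -0.0048 and Mylk -0.018, and array weights gave Des -0.050. With 1 library left out, these changed sign: Actg2 (-0.021 to 0.39), Cnn2 (-0.012 to 0.097), Cald1 (-0.067 to 0.090), Tpm1 (-0.0097 to 0.16), Tpm2 (-0.045 to 0.19), Smtn (-0.059 to 0.20), Myh11 (-0.18 to 0.12), Mylk (-0.045 to 0.16), Ppp1r12b (-0.10 to 0.068), Ppp1r14a (-0.021 to 0.23), Des (-0.077 to 0.13), Flna (-0.22 to 0.067), Tns1 (-0.22 to 0.0095), Pdlim7 (-0.0015 to 0.15), Synpo2 (-0.019 to 0.19), Rbpms (-0.096 to 0.080), and the log2 ratios of Acta2 over Actg2 (-0.14 to 0.11), Tpm1 over Tpm2 (-0.028 to 0.035) and Myl9 over Myl6 (-0.027 to 0.052). The cause was not tested. Quantile normalization put Acta2, Tagln and the members' median at 0. That method gives equal ranks equal values, so a gene that keeps its rank in every library comes out at 0 whatever its counts. For such genes it is no check of the difference. Cnn1, Aoc3, Itga8, Vcl, Mcam, Pgm5 and Synm were among the members that had the same direction under every alternative run.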
